A study of Rattus norvegicus with 23 samples.

Results

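The 7 genes described here are the complex I subunits that the mitochondrial genome encodes: Mt-nd1 (ENSRNOG00000030644), Mt-nd2 (ENSRNOG00000031033), Mt-nd3 (ENSRNOG00000033615), Mt-nd4 (ENSRNOG00000029707), Mt-nd4l (ENSRNOG00000031053), Mt-nd5 (ENSRNOG00000029971) and Mt-nd6 (ENSRNOG00000029042). They were taken by identifier and make up 7 of the 26405 genes in each count file. All 7 passed the filter on low counts. Together they took 12.02 to 21.5% of the counts in genes, with a median of 18.9% over 23 libraries.

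Their level was read by RNA-seq in the apex of the heart. The rats were of the inbred Lewis strain and were killed 6 weeks after a kidney transplantation. Each library came from 1 rat, and the design crossed the health of the donor with that of the recipient. Group HD-HR held healthy recipients of a healthy kidney (n = 6), CD-HR healthy recipients of a kidney from a donor with chronic kidney disease (CKD, n = 6), HD-CR CKD recipients of a healthy kidney (n = 5) and CD-CR CKD recipients of a CKD kidney (n = 6). CKD rats had lost renal mass by coagulation of renal artery branches and had then received the nitric oxide synthase inhibitor L-NNA at 200 mg/L in the water and 6% NaCl in the chow, both stopped at a proteinuria of 200 mg per 24 h. They were transplanted when proteinuria stood at 100 mg per 24 h after that treatment had ended. Rats of all 4 groups received a left kidney as an isograft after 30 min each of cold and warm ischaemia, and their right native kidney was taken out on day 10 to 14. The sources used here give neither age nor sex, and a CKD recipient differs from a healthy one by the ablation, L-NNA and salt as well as by the disease, which cannot be told apart.

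Complex I (NADH:ubiquinone oxidoreductase) takes electrons from NADH into the respiratory chain and pumps protons across the inner mitochondrial membrane. Its membrane arm is built around the ND subunits made inside the mitochondrion, while the other subunits are nuclear-encoded and imported. The heart, which lives on oxidative phosphorylation, is rich in mitochondria and in their RNA. Mt-nd1, Mt-nd2, Mt-nd3, Mt-nd4l, Mt-nd4 and Mt-nd5 are read from a single long precursor of the heavy strand promoter, which is cut at the tRNAs between them. Mt-nd4l and Mt-nd4 stay on a shared mRNA in which their reading frames overlap, and Mt-nd6 is the only complex I gene transcribed from the light strand promoter, opposite the end of Mt-nd5.

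The unit used for levels is the share of a library's counts in genes, in percent. Shares are not divided by gene length, so they compare libraries and not genes, and a share falls when other transcripts take more of the library. Depth was 7391929 to 12444980 counts in genes. The 6 heavy-strand genes had 12701 to 868333 counts in each library and the 95% Wilson interval of a share was at most 1.74% of its value to either side. Mt-nd6 had 818 to 2687 counts, with at most 6.86%. These intervals cover counting error only, and reads of PCR-amplified libraries are not independent molecules. Poly(A) selection was used, so a share also depends on how much of each mitochondrial mRNA carries a tail, and the mRNA of the ND6 gene is known in human cells for carrying little or none. The sources used here do not name the strand setting of the counter, so Mt-nd6 reads and antisense reads of the Mt-nd5 region cannot be told apart. In heart tissue, fewer mitochondria or fewer muscle cells and less of these RNAs per cell cannot be told apart either. The identifiers of cardiac muscle and other cell type markers could not be matched, so the tissue label was not checked against markers.

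The 3 libraries CD-CR1, HD-CR2 and CD-HR5 stood apart from the rest. In CD-CR1 and HD-CR2 the library's own 10 most abundant genes took 48.8% and 51.4% of the counts, the lowest shares of all. CD-HR5 had the most non-unique alignments, 10.7 per counted read, while its 10 most abundant genes took 68.6%, the highest share of all. Of the 10 genes with the highest mean share over all libraries 4 are complex I members, so the way CD-CR1 and HD-CR2 were picked is linked to the level of the members themselves. The same 3 libraries had the 3 lowest summed shares of the members (12.02% in CD-CR1, 15.03% in HD-CR2 and 15.3% in CD-HR5). After TMM scaling, which the fold changes below use, CD-HR5 (factor 0.818) was not low. It then lay above the CD-HR mean for Mt-nd1, Mt-nd2, Mt-nd4l, Mt-nd5 and Mt-nd6, and just below it for Mt-nd3 and Mt-nd4. CD-CR1 and HD-CR2 remained the lowest of their groups for every heavy-strand gene. The summed share, the fold changes, the ratios, the spread over libraries and the correlations are also given without the 3 libraries where they move.

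The summed share was higher on average in CKD recipients, by less than the pooled SD of single rats when all 23 libraries were used. In HD-HR it ran from 16.5% (HD-HR4) through a median of 18.0% to 19.1% (HD-HR2), with a mean of 17.9 ± 0.921% (SD, n = 6). In CD-HR it ran from 15.3% (CD-HR5) through 16.1% to 20.5% (CD-HR6), with a mean of 17.1 ± 2.09% (n = 6). CD-HR fell into 4 libraries between 15.3 and 16.2% and the other two, CD-HR1 and CD-HR6, at 18.9 and 20.5%. In HD-CR the values were 19.3, 15.03, 20.9, 21.3 and 21.5% in libraries 1 to 5, with a mean of 19.6 ± 2.70% (n = 5). In CD-CR they ran from 12.02% (CD-CR1) through 20.6% to 21.4% (CD-CR2), with a mean of 19.1 ± 3.58% (n = 6). Of the 11 CKD recipients 6 lay above every healthy recipient, while 2, HD-CR2 and CD-CR1, lay below every one.

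**Figure D1:**
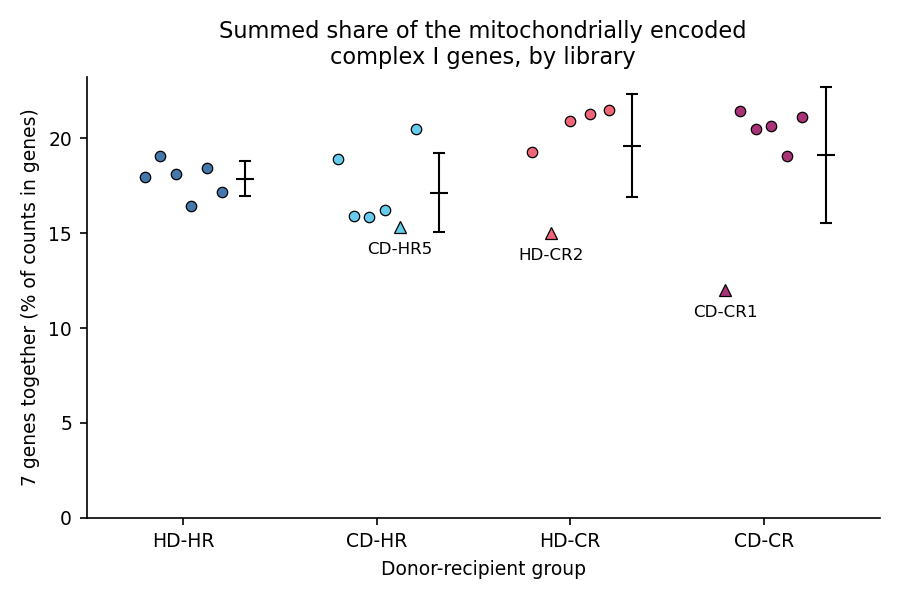
Summed share of the 7 genes in percent of the counts in genes (vertical axis) by donor-recipient group, with a point per library, triangles for CD-CR1, HD-CR2 and CD-HR5, and bars for the mean ± SD. Most CKD recipients sit between 19.1 and 21.5%, above most healthy recipients, and the lowest library of all is CD-CR1 at 12.02%.

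Averaged over the donors, CKD recipients exceeded healthy recipients by 1.87 percentage points, against a pooled SD of 2.52. An SD describes single rats, so setting the difference against it is not a test of the difference. The difference was 1.74 points with a healthy donor kidney and 2.00 points with a CKD donor kidney. Without the 3 libraries CD-HR averaged 17.5 ± 2.12% (SD, n = 5), HD-CR 20.8 ± 0.998% (n = 4) and CD-CR 20.5 ± 0.918% (n = 5). The averaged difference then came to 2.98 points, more than the SD of any group. CD-CR1 and HD-CR2 were picked by a measure that the members help to set, so nothing more is read from this. The difference for a CKD against a healthy donor kidney was -0.741 points in healthy recipients and -0.482 points in CKD recipients, both inside the pooled SD of 1.61 and 3.17. The value in CKD recipients turned to 0.940 points when CD-CR1 was left out.

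Mt-nd1 and Mt-nd3 lie where the membrane arm meets the arm that carries the electrons. Mt-nd1 forms much of the entrance for ubiquinone. Its share ran from 3.85 to 4.62% in HD-HR (median 4.39%) and from 3.88 to 4.84% in CD-HR (median 4.27%). It was 4.82, 3.70, 5.02, 5.19 and 5.32% in HD-CR 1 to 5, and ran from 3.08 to 5.24% in CD-CR (median 4.81%). The 6 CKD recipients with the highest values lay above every healthy recipient. The other 5 CKD recipients lay below the healthy CD-HR6, and HD-CR2 and CD-CR1 below every healthy recipient. The averaged log2 fold change of TMM-scaled counts, CKD over healthy recipients, was 0.18 ± 0.14 (SE), with an adjusted p of 0.404 in edgeR and a 95% interval of 0.928- to 1.39-fold.

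Mt-nd3 carries a loop near the ubiquinone site that takes part in the switch between the active and deactive forms of the enzyme. Its share ran from 0.218 to 0.345% in HD-HR (median 0.306%) and from 0.293 to 0.459% in CD-HR (median 0.320%). It was 0.350, 0.263, 0.387, 0.361 and 0.475% in HD-CR 1 to 5, and ran from 0.275 to 0.477% in CD-CR (median 0.330%). Here 4 of the 5 HD-CR libraries lay above all of HD-HR, and CD-HR and CD-CR covered nearly the same range. The log2 fold change of recipient CKD was 0.36 ± 0.23 with a healthy donor kidney and 0.02 ± 0.22 with a CKD donor kidney, with adjusted p of 0.419 and 0.975 in edgeR. The difference between those fold changes, -0.34 ± 0.32, did not pass the test either (adjusted p = 0.99998, edgeR).

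Mt-nd2, Mt-nd4 and Mt-nd5 are the antiporter-like subunits that form the proton channels of the membrane arm. Mt-nd2 ran from 4.74 to 6.31% in HD-HR (median 5.22%) and from 4.36 to 6.19% in CD-HR (median 4.70%). It was 5.82, 4.57, 6.45, 6.23 and 6.57% in HD-CR 1 to 5, and ran from 3.75 to 6.50% in CD-CR (median 6.25%). The healthy recipients HD-HR2 and CD-HR6 reached the level of the CKD recipients, of which 4 of 11 lay above every healthy recipient. The others, among them HD-CR1, HD-CR2 and CD-CR5, lay below HD-HR2, and CD-CR1 lay below every healthy recipient. Mt-nd2 had the largest averaged fold change of the 7, 0.25 ± 0.15 on the log2 scale (adjusted p = 0.267 in edgeR, 95% interval 0.963- to 1.47-fold).

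Mt-nd4 ran from 5.13 to 5.68% in HD-HR (median 5.51%) and from 4.35 to 6.68% in CD-HR (median 4.81%). It was 5.95, 4.53, 6.14, 6.49 and 6.46% in HD-CR 1 to 5, and ran from 3.61 to 6.98% in CD-CR (median 6.54%). HD-HR was narrow and CD-HR split around it, with CD-HR1 and CD-HR6 above all of HD-HR. The averaged log2 fold change was 0.23 ± 0.15 (adjusted p = 0.312 in edgeR, 95% interval 0.949- to 1.46-fold).

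Mt-nd5 is the subunit at the far end of the membrane arm. Its share ran from 1.99 to 2.38% in HD-HR (median 2.14%) and from 1.34 to 2.64% in CD-HR (median 1.86%). It was 2.09, 1.71, 2.67, 2.81 and 2.41% in HD-CR 1 to 5, and ran from 1.11 to 2.50% in CD-CR (median 2.13%). From the lowest to the highest library Mt-nd5 spanned 2.54-fold, the widest range of the heavy-strand genes, and Mt-nd1 1.73-fold, the narrowest. Without CD-CR1 Mt-nd5 spanned 2.10-fold, less than Mt-nd3 at 2.19-fold, and Mt-nd1 1.44-fold. Its averaged log2 fold change was 0.14 ± 0.17 (adjusted p = 0.623 in edgeR, 95% interval 0.866- to 1.40-fold).

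**Figure D2:**
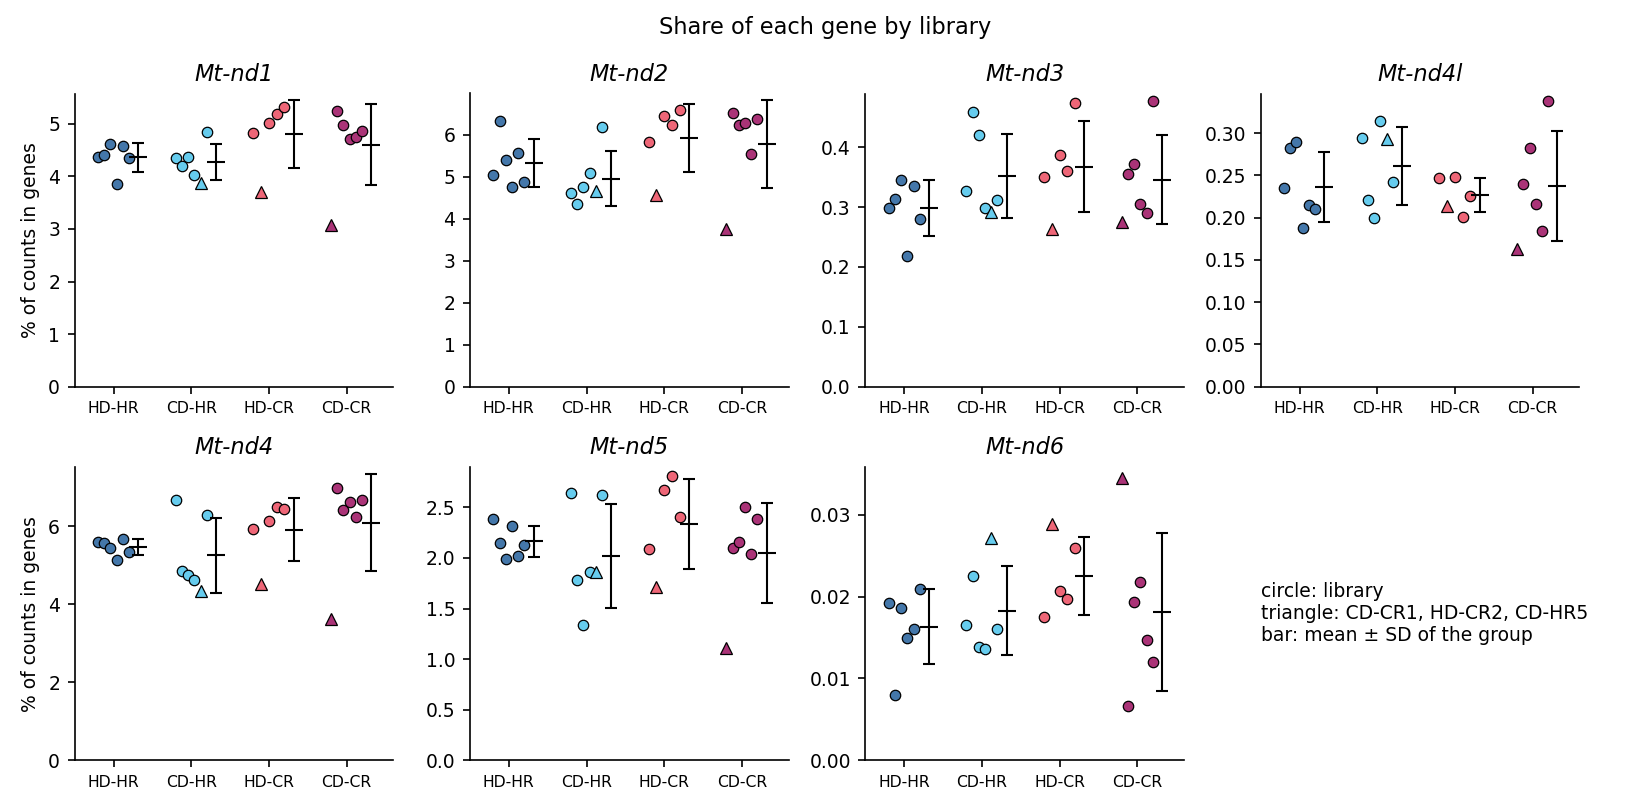
Share of each gene in percent of the counts in genes (vertical axes, each from 0) by donor-recipient group, with a point per library, triangles for CD-CR1, HD-CR2 and CD-HR5, and bars for the mean ± SD. CD-CR1 is the lowest library for Mt-nd1 (3.08%), Mt-nd2 (3.75%), Mt-nd4 (3.61%) and Mt-nd5 (1.11%), and the highest for Mt-nd6 (0.0344%).

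Mt-nd4l, a small membrane subunit beside Mt-nd6 in the complex, was the only member with a lower averaged level in CKD recipients. Its share ran from 0.187 to 0.290% in HD-HR (median 0.225%) and from 0.200 to 0.315% in CD-HR (median 0.268%). It was 0.246, 0.214, 0.248, 0.200 and 0.226% in HD-CR 1 to 5, and ran from 0.163 to 0.338% in CD-CR (median 0.228%). All HD-CR libraries fell inside the range of HD-HR, and CD-CR spanned that of every other group. The averaged log2 fold change was -0.05 ± 0.15 (adjusted p = 0.851 in edgeR, 95% interval 0.775- to 1.20-fold), and it turned to 0.14 ± 0.12 without the 3 libraries (adjusted p = 0.473).

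Because Mt-nd4l and Mt-nd4 share an mRNA, their counts were also set against each other within each library. Per 100 Mt-nd4 reads, HD-HR had 4.32 ± 0.705 Mt-nd4l reads (SD, n = 6) and CD-HR had 5.09 ± 1.32 (n = 6). HD-CR had 3.89 ± 0.625 (n = 5) and CD-CR 3.94 ± 0.834 (n = 6). Without the 3 libraries CD-HR had 4.76 ± 1.17 (n = 5), HD-CR 3.69 ± 0.492 (n = 4) and CD-CR 3.82 ± 0.878 (n = 5). Single libraries ran from 2.96 (CD-CR5) to 6.80 (CD-HR4). Reads in the overlap of the reading frames cannot be assigned to a single gene by a counter that sets ambiguous reads aside. Ambiguous reads were 1.20 ± 0.153% in healthy recipients (SD, n = 12) and 1.40 ± 0.323% in CKD recipients (n = 11), and their part in this ratio was not tested.

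Mt-nd6, the light-strand subunit in the membrane arm between Mt-nd1 and Mt-nd4l, had its 3 highest shares in the 3 libraries whose summed share was lowest. Its share ran from 0.00801 to 0.0210% in HD-HR (median 0.0174%) and from 0.0135 to 0.0272% in CD-HR (median 0.0163%). It was 0.0175, 0.0289, 0.0207, 0.0196 and 0.0260% in HD-CR 1 to 5, and ran from 0.00657 to 0.0344% in CD-CR (median 0.0170%). The range over all libraries was 5.24-fold, and 3.95-fold without the 3 libraries, in both cases wider than for any other member. The highest values were those of CD-CR1, HD-CR2 and CD-HR5 (0.0344, 0.0289 and 0.0272%), the 3 libraries with the lowest summed share. The lowest values, in CD-CR2 (0.00657%) and HD-HR2 (0.00801%), came with summed shares of 21.4 and 19.1%.

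**Figure D3:**
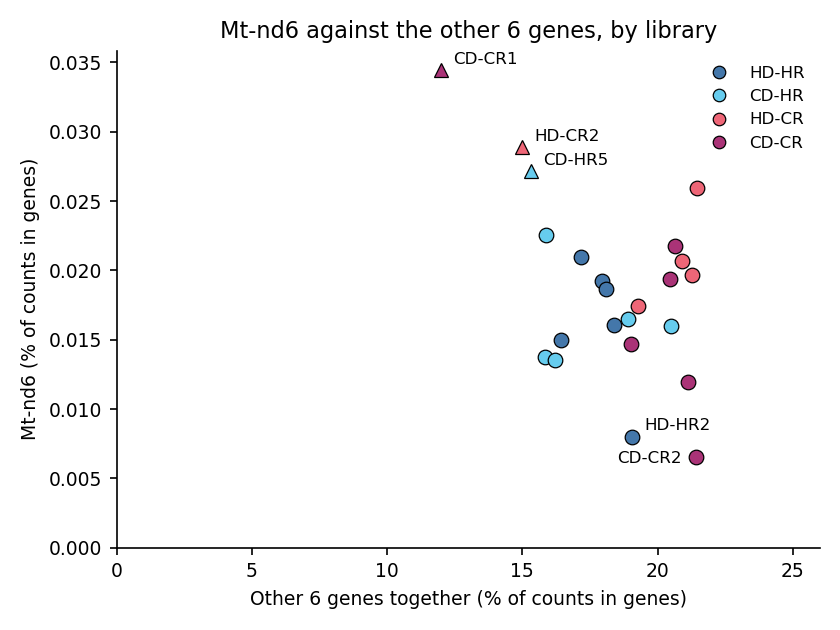
Share of Mt-nd6 (vertical axis, percent of counts in genes) against the summed share of the other 6 genes (horizontal axis, percent of counts in genes), with a point per library coloured by group and triangles for CD-CR1, HD-CR2 and CD-HR5. The triangles lie at the upper left, highest in the share of Mt-nd6 and lowest in that of the other genes, and the other 20 libraries show no single order. By TMM-scaled counts, CD-CR1 and HD-CR2 were below CD-HR5, HD-CR5 and CD-HR2 in Mt-nd6.

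Set against Mt-nd5, its neighbour on the opposite strand, Mt-nd6 gave 7.57 ± 2.22 reads per 1000 Mt-nd5 reads in HD-HR (SD, n = 6) and 9.54 ± 3.58 among CD-HR libraries (n = 6). HD-CR averaged 10.2 ± 4.02 (n = 5) and CD-CR 10.7 ± 10.3 (n = 6). CD-CR1 alone had 31.1. Without the 3 libraries CD-HR averaged 8.52 ± 2.88 (n = 5), HD-CR 8.47 ± 1.65 (n = 4) and CD-CR 6.61 ± 2.50 (n = 5), so that CD-CR went from the highest to the lowest mean. The share of reads in no feature was 18.2% in CD-CR1, 16.1% in HD-CR2 and 21.5% in CD-HR5, against group means of 13.9 to 16.7%. Those means include the 3 libraries. HD-CR2 lay inside their range and below HD-HR4 (17.9%) and CD-HR4 (17.1%), among others. The part of these library features in the Mt-nd6 values was not tested.

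In edgeR, Mt-nd6 differed by 0.49 ± 0.29 on the log2 scale between HD-CR and HD-HR (adjusted p = 0.381) and by -0.13 ± 0.28 between CD-CR and CD-HR (adjusted p = 0.844). The difference between these fold changes was -0.62 ± 0.40 (adjusted p = 0.99998, 95% interval 0.365- to 1.16-fold), the largest in size of the 7 genes and not past the test. Between CD-CR and HD-CR Mt-nd6 differed by -0.35 ± 0.29 (adjusted p = 0.773). Leaving out the 3 libraries gave 0.52, -0.0080, -0.53 and -0.48 for these 4 values. The value of -0.0080, for CD-CR against CD-HR, was far smaller than its SE of 0.29. Its sign turned under some of the other settings given in the last section.

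Across the whole set, edgeR called 0 of the 7 genes for recipient CKD averaged over the donors, where it called 12.8% of the 11568 genes tested. None of the 7 had an unadjusted p under 0.05 there, beside 29.5% of all genes. DESeq2, which called 1815 genes, and limma-voom also called 0 of the 7. Of the 7, 6 had a higher level in CKD recipients, with a median log2 fold change of 0.18 beside -0.01 for all genes tested. With a healthy donor kidney 0 of 7 were called (0.614% of all genes), with a median of 0.20 beside -0.01. With a CKD donor kidney 0 of 7 were called (1.56% of all genes), with a median of 0.09 beside 0.00. The intervals of these folds are wide: for Mt-nd2 with a CKD donor kidney, the interval ran from 0.910- to 1.63-fold.

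For the disease of the donor kidney in healthy recipients, 0 of the 7 genes were called, as were 0.00% of all genes tested (0 by edgeR at a smallest adjusted p of 0.398, with 879 at an unadjusted p under 0.05, and 11 by DESeq2). Their log2 fold changes ran from -0.04 (Mt-nd2) to 0.29 (Mt-nd3). In CKD recipients 0 of 7 were called, beside 0.0259% of all genes, and the values ran from -0.35 (Mt-nd6) to 0.14 (Mt-nd4l). For the interaction of donor and recipient 0 of 7 were called, beside 0.00864% of all genes, with values from -0.62 (Mt-nd6) to 0.11 (Mt-nd4). In these 3 comparisons, too, 0 of the 7 genes had an unadjusted p under 0.05, beside 7.60%, 8.31% and 3.26% of all genes. DESeq2 and limma-voom called 0 of the 7. The comparisons share groups, so their values are not independent of each other.

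**Figure D4:**
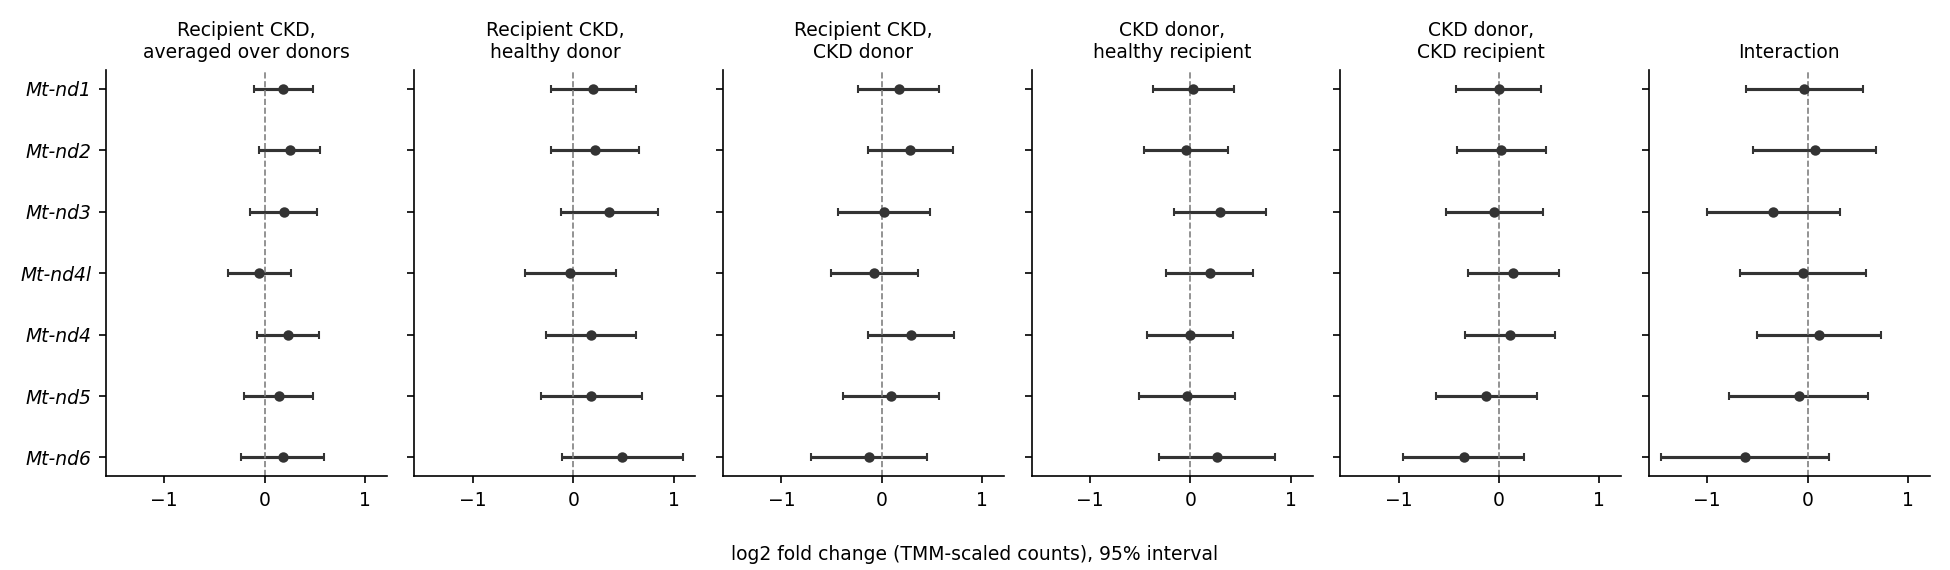
Log2 fold change of TMM-scaled counts (horizontal axes) of each gene in the 6 comparisons, with points for the edgeR estimate and bars for its 95% interval. Every interval includes 0, and the widest is that of Mt-nd6 in the interaction, around -0.62.

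Leaving out CD-CR1, HD-CR2 and CD-HR5 changed the calls in the averaged recipient comparison. Mt-nd1 was then higher in CKD recipients by 0.36 ± 0.09 on the log2 scale (adjusted p = 0.0159 in edgeR), Mt-nd2 by 0.44 ± 0.10 (adjusted p = 0.00999) and Mt-nd4 by 0.41 ± 0.09 (adjusted p = 0.0103). So 3 of 7 genes were called, where 8.37% of the 11627 genes tested were. Mt-nd5 was higher by 0.34 ± 0.11 and just missed the threshold (adjusted p = 0.0556), and Mt-nd3, Mt-nd4l and Mt-nd6 were not called. Leaving out CD-CR1 alone gave an adjusted p of 0.0562 for Mt-nd4 and 0.0579 for Mt-nd2, and leaving out HD-CR2 alone gave 0.138 and 0.115. CD-CR1 and HD-CR2 were picked by a measure that the members themselves help to set, and all 3 after seeing the data. These calls therefore describe the remaining 20 libraries and are not independent support for a difference. In the other 5 comparisons edgeR called 0 of the 7 genes without the 3 libraries. It called 0.955% of all genes for HD-CR against HD-HR and 0.155% for CD-CR against CD-HR. An unadjusted p under 0.05 was reached there by 5 of 7 members beside 20.8% of all genes, and by 3 of 7 beside 10.8%. The calls over all genes were 0.103% for CD-CR against HD-CR and 0.00% for CD-HR against HD-HR and for the interaction, and in these 3 comparisons 0 of the 7 had an unadjusted p under 0.05, beside 10.9%, 7.43% and 3.35% of all genes.

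**Figure D5:**
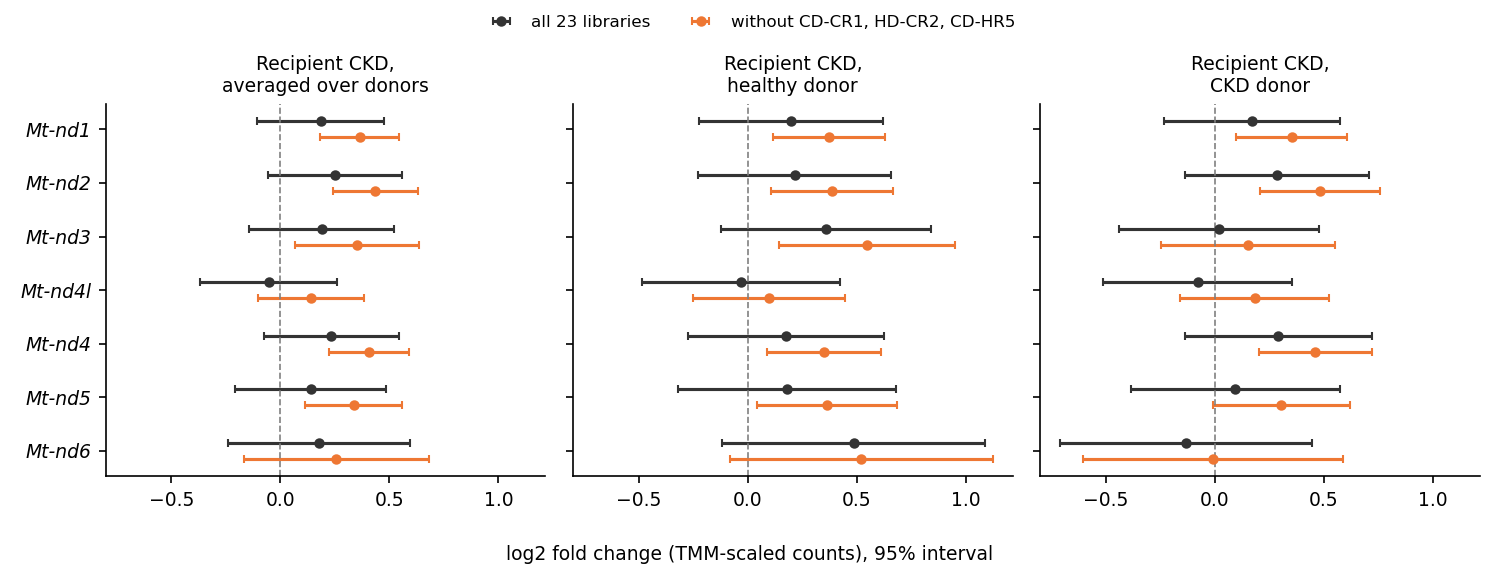
Log2 fold change of TMM-scaled counts for recipient CKD (horizontal axes) of each gene, with points for the edgeR estimate and bars for its 95% interval, over all 23 libraries (dark) and without CD-CR1, HD-CR2 and CD-HR5 (orange). Without them Mt-nd2 moves from 0.25 to 0.44 in the averaged comparison and the bars of the heavy-strand genes become shorter.

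The shares in single libraries were also compared by range. Between HD-HR and HD-CR, 0 of the 7 genes had ranges that did not overlap, against 1.40% of all genes tested with HD-CR above HD-HR. Without HD-CR2, the 4 other HD-CR libraries lay above all 6 HD-HR libraries for Mt-nd1, Mt-nd3 and Mt-nd4 and for the summed share. HD-CR2 was the only HD-CR library not above HD-HR for these 3 genes, and it was left out by a measure the members help to set, so nothing is read from their count against the 1.62% of all genes tested that met this. Between CD-HR and CD-CR all 7 ranges overlapped without the 3 libraries as well. The share over all genes was not computed for this pair, so nothing is read from that count.

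The animal names in the deposited files begin with 12 or 13, and this prefix, for which the sources used here give no meaning, goes with the recipient's disease. All 12 healthy recipients carry 13, while 9 CKD recipients carry 12 and 2, HD-CR5 and CD-CR5, carry 13. Within prefix 13 the averaged difference in summed share was 2.77 percentage points, on 2 CKD recipients. The edgeR fit with the prefix as a covariate gave log2 fold changes of 0.40 for Mt-nd1 (adjusted p = 0.384), 0.42 for Mt-nd2 (0.387) and 0.44 for Mt-nd4 (0.377). It called 0 of the 7 genes, beside 6 of the 11568 genes tested, so nothing is read from the 0. Only HD-CR5 and CD-CR5 separate the prefix from the recipient's disease in this fit. Reads in no feature (CKD recipients 14.1 ± 1.95%, n = 11, healthy recipients 16.2 ± 2.10%, n = 12) and non-unique alignments per counted read (1.36 ± 0.602 and 2.96 ± 2.59) differed between recipients as well, and their part in the members' values was not tested beyond the fit that follows. With the non-unique alignments as a covariate, edgeR called 0 of 7 in the averaged comparison. The share of all genes called in this fit is not given here, so nothing is read from that count. An unadjusted p under 0.05 was reached by 1 of the 7, beside 0 without the covariate. The members' median log2 fold change was 0.09 and their smallest adjusted p 0.104, beside 0.18 and 0.267 without the covariate.

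Among themselves, Mt-nd1, Mt-nd2 and Mt-nd4, which took most of the members' counts, kept close proportions in the 4 groups. Of the members' own counts, HD-HR had 30.6 ± 0.773% from Mt-nd4 (SD, n = 6) and CD-HR 30.6 ± 2.52% (n = 6). HD-CR had 30.2 ± 0.540% (n = 5) and CD-CR 31.8 ± 0.980% (n = 6). As group means, Mt-nd1 took 24.2 to 25.1% and Mt-nd2 28.9 to 30.3%. Without the 3 libraries the means of Mt-nd4 were 30.2 to 32.1%, those of Mt-nd1 23.9 to 25.1% and those of Mt-nd2 28.7 to 30.2%. CD-HR was the most variable group for Mt-nd1, Mt-nd2 and Mt-nd4: in CD-HR1 Mt-nd2 took 24.4% and Mt-nd4 35.3%. Mt-nd6 took 0.0307% in CD-CR2 and 0.287% in CD-CR1, both in the same group.

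Over the 23 libraries the log2 levels of the heavy-strand genes moved together, as a description of libraries that share depth and scaling. Pearson's r was 0.96 for Mt-nd1 with Mt-nd2 and with Mt-nd4, and 0.92 for Mt-nd4 with Mt-nd5. It was lowest for Mt-nd3 with Mt-nd5, 0.59 (rho = 0.55). Spearman's rho was lowest for Mt-nd4l with Mt-nd4, the pair on a shared mRNA, 0.45 (r = 0.70). Mt-nd6 gave an r of -0.10 to 0.10 with the other 6 genes. Over the 20 libraries other than the 3 that stand apart, r was 0.93 for Mt-nd1 with Mt-nd2, 0.91 for Mt-nd1 with Mt-nd4 and 0.81 for Mt-nd4 with Mt-nd5, but 0.47 for Mt-nd4l with Mt-nd4 (rho = 0.37) and 0.29 for Mt-nd3 with Mt-nd5. Mt-nd6 then gave -0.08 to 0.33. Of the 11561 other genes tested, those whose level was most like the members' sum were ENSRNOG00000031979 (r = 0.97, rho = 0.98, on average 8.20% of the counts) and ENSRNOG00000030700 (r = 0.91, rho = 0.86, on average 6.11%), which the files do not pair with names. Their r was 0.96 and 0.87 without the 3 libraries. An r above 0.8 was found for 5 of these genes over all 23 libraries, and the median was -0.03.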

How the data were processed

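Heart apex RNA of 23 rats was measured as poly(A)-selected, directional RNA-seq, per the labels' protocols. Each deposited file holds the read counts of 1 library, as whole numbers by gene without normalization. STAR 2.4.2a, Picard and HTSeq 0.6.1p1 with build Rnor_5.0 are named in the submitters' processing notes. The sources used here do not name the annotation release, the strand setting or whether duplicates were removed. HTSeq files list non-unique alignments separately, so reads that also match nuclear copies of mitochondrial genes are outside the gene counts. The 5 summary lines entered neither the library sizes nor the tests.

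Shares are counts over the sum of counts in genes. Tests used edgeR 4.0.16 in R 4.3.3 (filterByExpr on the 4 groups, TMM, robust glmQLFit, glmQLFTest) in a single fit of the 23 libraries, with Benjamini-Hochberg adjustment over 11568 genes and a call at an adjusted p under 0.05. TMM factors ran from 0.818 to 1.46 (CD-CR1). DESeq2 1.42.0 and limma 3.58.1 (voom) were alternatives, beside scaling by library size, no filter, the 2 groups alone, covariates, a replicate block and leaving out each library. Log2 levels for correlations used a prior count of 2. Group membership came from the sample titles. No pair of libraries of a group agreed within sampling noise (lowest chi-square per degree of freedom 8.38 over genes with at least 10 counts). The code was tested on simulated counts.

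The members and the lists were chosen with earlier results of these data known. All 7 members are named whatever their values, and of the other genes the 2 most like their sum. Gene symbols of the members were given with the choice of genes, since the files hold identifiers only. The reference table at hand held 0 Ensembl rat identifiers, so 0 members of the lists of other mitochondrially encoded genes, nuclear complex I subunits, assembly factors, mitochondrial transcription genes and cell type markers were tested, and no gene length, coordinate or sequence is given.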

Additional observations from a re-analysis of the deposited data

Results flagged for a closer look

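Within the 32 sets of 5 or 6 shares compared by gap and range, 7 held a library far from the others of its group. The sets are not independent, since the heavy-strand genes moved together and the sum is made of the members. The number of flags is therefore not set against a rate by chance, and most of them are CD-CR1. CD-CR1 stood below the other CD-CR libraries for Mt-nd1 (3.08%), Mt-nd2 (3.75%), Mt-nd4 (3.61%), Mt-nd5 (1.11%) and the sum of the 7 genes (12.02%). HD-CR2 stood below the other HD-CR libraries for Mt-nd4 (4.53%). HD-HR4 stood below the other HD-HR libraries for Mt-nd1 (3.85%). HD-HR4 was also the lowest HD-HR library for Mt-nd2, Mt-nd3, Mt-nd4l, Mt-nd4 and the sum, and its 10 most abundant genes took 55.03% of the counts, the lowest share of its group.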

How the results depend on the processing

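Of 1057 fold changes of the members under other settings, 963 kept their direction and their side of the threshold, 3 kept the direction and passed it, and 91 turned in direction, by at most 0.34 on the log2 scale from 0. No member was called under any setting except Mt-nd1, Mt-nd2 and Mt-nd4 in the averaged recipient comparison without CD-CR1, HD-CR2 and CD-HR5, a setting chosen after seeing the data. All differences in summed share stayed within 1 pooled SD of the reported value, though with prefix 12 alone CD-CR and HD-CR differed by 0.0019 points. Depth limits Mt-nd6 most. The causes of the changes below were not tested, beyond the smaller number of libraries where some are left out. Comparisons are given as the first group over the second.

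The number of genes called over all genes moved more. DESeq2 called 259 for HD-CR/HD-HR, 449 for CD-CR/CD-HR, 11 for CD-HR/HD-HR, 36 for CD-CR/HD-CR and 2 for the interaction. Scaling by library size called 399 for the averaged recipient comparison, 23 for HD-CR/HD-HR, 50 for CD-CR/CD-HR, 15 for CD-CR/HD-CR and 2 for the interaction, against 1483, 71, 181, 3 and 1 as reported. Limma-voom called 44 for HD-CR/HD-HR. The prefix covariate left 6 in the averaged comparison, 3 for HD-CR/HD-HR and 0 for CD-CR/CD-HR. Prefix 13 alone left 10 for HD-CR/HD-HR and 0 in the averaged comparison, CD-CR/CD-HR, CD-CR/HD-CR and the interaction. The covariate of non-unique alignments left 109 for CD-CR/CD-HR. Fits of the 2 groups alone called 306, 32 and 7 for HD-CR/HD-HR, CD-CR/CD-HR and CD-CR/HD-CR. Without the 3 libraries the counts were 973 in the averaged comparison (3 of them members), 111 for HD-CR/HD-HR, 18 for CD-CR/CD-HR, 12 for CD-CR/HD-CR and 0 for the interaction.

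Members that turned in direction were as follows. For CD-CR/HD-CR, Mt-nd1 was 0.0079 with no filter, 0.016 with the prefix covariate and 0.054 with prefix 12 alone. Mt-nd2 was -0.038 by library size, -0.0088 in limma-voom and -0.30 with prefix 13 alone, and Mt-nd3 was 0.14 with prefix 12 alone. Mt-nd4l was -0.34 and Mt-nd4 -0.10 with prefix 13 alone. For CD-CR/CD-HR, Mt-nd3 was -0.024 by library size, -0.018 in limma-voom, -0.13 with prefix 13 alone and -0.014 with the covariate of non-unique alignments. With that covariate Mt-nd5 was -0.053 and Mt-nd6 0.25, and Mt-nd6 was 0.065 with the prefix covariate. For CD-HR/HD-HR, Mt-nd4 was 0.0046 in DESeq2, 0.0080 with prefix 13 alone, 0.0097 without the 3 libraries and 0.057 with non-unique alignments. Mt-nd1 was -0.030 by library size, and Mt-nd2 0.011 and Mt-nd5 0.0093 with non-unique alignments. With prefix 13 alone Mt-nd4l was 0.20 for HD-CR/HD-HR, and in the interaction Mt-nd2 was -0.27 and Mt-nd4 -0.11. Without the 3 libraries Mt-nd4l was 0.14 in the averaged comparison, 0.10 for HD-CR/HD-HR, 0.18 for CD-CR/CD-HR and 0.086 in the interaction.

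The replicate numbers in the titles were not taken to pair the rats in the reported fit. Libraries of the same number correlated over 0.1 in 11 of 22 pairs (-0.32 to 0.36). Libraries of different numbers were not compared, so these values cannot decide whether the numbers pair rats. With the replicate block 0 members were called, the interaction count went from 1 to 0 genes, Mt-nd4l was 0.0040 for HD-CR/HD-HR and Mt-nd2 -0.037 for CD-CR/HD-CR.

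Leaving out each library in turn gave 860 to 1742 genes called in the averaged comparison (lowest without HD-CR4), 5 to 89 for HD-CR/HD-HR (without HD-CR5 and HD-HR6), 48 to 359 for CD-CR/CD-HR (without CD-HR4 and CD-HR1), 0 to 1 for CD-HR/HD-HR (1 without CD-HR6), 2 to 18 for CD-CR/HD-CR (18 without HD-CR2) and 0 to 2 for the interaction. Member values whose sign turned were, in the averaged comparison, Mt-nd4l from -0.12 to 0.037 and, for HD-CR/HD-HR, Mt-nd4l from -0.12 to 0.088. For CD-CR/CD-HR they were Mt-nd3 (-0.11 to 0.16), Mt-nd4l (-0.22 to 0.080), Mt-nd5 (-0.015 to 0.28) and Mt-nd6 (-0.24 to 0.094). For CD-HR/HD-HR they were Mt-nd1 (-0.034 to 0.080), Mt-nd2 (-0.14 to 0.019), Mt-nd4 (-0.077 to 0.062) and Mt-nd5 (-0.15 to 0.072). For CD-CR/HD-CR they were Mt-nd1 (-0.16 to 0.14), Mt-nd2 (-0.13 to 0.17), Mt-nd3 (-0.22 to 0.12), Mt-nd4l (-0.00071 to 0.29), Mt-nd4 (-0.046 to 0.27) and Mt-nd5 (-0.29 to 0.041). In the interaction they were Mt-nd1 (-0.19 to 0.10), Mt-nd2 (-0.091 to 0.21), Mt-nd4l (-0.19 to 0.086), Mt-nd4 (-0.048 to 0.26) and Mt-nd5 (-0.26 to 0.069).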
